A study of Mus musculus with 4 samples.

Results

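Tenascins, lecticans and their partners form the extracellular matrix between cells of the embryonic cortex, and 10 genes of this matrix are described here: Tnc, Tnr, Bcan, Ncan, Vcan, Ptprz1, Cspg5, Hapln1, Hapln4 and Has2. They were chosen by gene symbol, as a family, with the fold changes between the groups already known, so the differences between the groups, with their intervals and calls, describe these libraries and are no independent evidence, and no p-value is printed for them. Of the 10 genes, 8 are rows of the table of 13289 genes, and Hapln1 and Has2 were not analysed here. All 8 passed the low-count filter.

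The libraries are bulk RNA-seq of polyadenylated RNA from the cerebral cortex of mouse embryos at embryonic day 15 (E15), with 2 control libraries titled WT and 2 libraries titled Lhx2cKO, called Lhx2 cKO here. cKO is read as conditional knockout of Lhx2, which encodes a LIM-homeodomain transcription factor of cortical progenitors. The strain, the allele, the Cre driver, the cells it acts in, any pooling of embryos and any agent given are not stated in the sources used here. Nor do the labels say whether libraries of a group came from separate embryos, so the errors measure only the spread between these libraries. Total counts ranged from 22294237 to 24609627, and replicates differed by more than counting error, with chi-square values per degree of freedom of 13.9 (control) and 14.3 (Lhx2 cKO). Lhx2 itself was at 316 and 287 CPM (counts relative to the library's total, scaled with TMM) in control and at 239 and 247 CPM in Lhx2 cKO. Its mean in Lhx2 cKO was 80.7% of control, or -0.31 (SE 0.098) on the log2 scale, and edgeR gave it an adjusted p of 0.0191. This call was lost without control 1 (-0.25), without Lhx2 cKO 1 (-0.28) and without Lhx2 cKO 2 (-0.34). Markers of radial glia (10 of 10 analysed), intermediate progenitors (5 of 5) and neurons (7 of 7) were all above the floor of 3 counts in every library.

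The matrix of the embryonic brain is built on hyaluronan, a long sugar polymer that hyaluronan synthases such as Has2 extrude from the cell surface. Lecticans are chondroitin sulfate proteoglycans that bind hyaluronan at one end, where link proteins of the Hapln family hold the pair together, and bind tenascins at the other. Radial glia, which are the cortical stem cells, make much of this matrix, and astrocytes and oligodendrocyte precursors make several of its parts later. Ptprz1 is a receptor-type tyrosine phosphatase that carries chondroitin sulfate chains, is shed or spliced as the soluble phosphacan, and binds pleiotrophin, midkine, contactins and tenascins.

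Promoter windows are shown for the members with the highest rises, for the one that fell and for the most abundant lectican, whose promoters can be set side by side with the values below. The RefSeq table of build GRCm38.p6 held 7 windows for 6 of the 8 members, each from 250 bases before to 50 bases after an annotated start. The 2 windows of Tnc overlap, and the one at the downstream start is shown. Windows lie at chr4:64046887-64047186 (minus strand) for Tnc, chr3:88000307-88000606 (minus) for Bcan, chr6:22875252-22875551 (plus) for Ptprz1 and chr8:70120795-70121094 (minus) for Ncan. Each is written 5′ to 3′ on the gene's strand. Capitals mark matches, at any position and on either strand, to TATAAA (the letters of the TATA box), GGGCGG (the GC box) and ATTTGCAT (the octamer of POU factors).
Tnc: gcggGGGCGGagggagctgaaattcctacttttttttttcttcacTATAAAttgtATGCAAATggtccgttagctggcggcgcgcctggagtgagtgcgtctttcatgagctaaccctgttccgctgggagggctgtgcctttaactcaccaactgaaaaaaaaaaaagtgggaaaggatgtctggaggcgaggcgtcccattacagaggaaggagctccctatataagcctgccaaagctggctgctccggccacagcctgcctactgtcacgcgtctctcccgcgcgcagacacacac
Bcan: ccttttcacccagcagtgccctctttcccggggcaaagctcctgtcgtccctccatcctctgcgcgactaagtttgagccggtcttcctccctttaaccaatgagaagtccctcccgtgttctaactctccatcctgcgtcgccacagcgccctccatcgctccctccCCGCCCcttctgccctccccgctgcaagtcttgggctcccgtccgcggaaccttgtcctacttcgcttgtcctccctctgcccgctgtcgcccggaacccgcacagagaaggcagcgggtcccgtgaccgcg
Ptprz1: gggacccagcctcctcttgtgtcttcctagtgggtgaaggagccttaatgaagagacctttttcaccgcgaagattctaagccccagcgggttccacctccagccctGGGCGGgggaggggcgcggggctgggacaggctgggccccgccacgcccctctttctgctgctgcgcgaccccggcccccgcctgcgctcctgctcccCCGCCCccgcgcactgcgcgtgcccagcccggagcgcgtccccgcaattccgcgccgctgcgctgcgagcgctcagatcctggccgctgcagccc
Ncan: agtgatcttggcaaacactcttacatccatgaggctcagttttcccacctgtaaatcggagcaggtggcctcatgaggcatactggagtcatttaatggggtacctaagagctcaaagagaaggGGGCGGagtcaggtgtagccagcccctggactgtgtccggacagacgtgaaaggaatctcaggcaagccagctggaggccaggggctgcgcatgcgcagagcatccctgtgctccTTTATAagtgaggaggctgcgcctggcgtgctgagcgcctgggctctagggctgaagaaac

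In these windows the octamer matched in Tnc alone of the 6 members, and 1.74% of all 32851 promoter windows held it. TATAAA was in the windows of Tnc and Ncan and in 13.6% of all windows. Relative to the annotated start it lay at -205 in the printed Tnc window and at -11, on the opposite strand, in Ncan. Neither match is therefore read as the TATA box of its gene. Only the exact letters TATAAA were searched, so variants of the TATA box are not marked. One such stretch, tatataa, is in lower case in the printed Tnc window, nearer the start than the marked match. The search therefore does not show that Tnc lacks a TATA box. GGGCGG was in Tnc, Bcan, Ncan, Vcan and Ptprz1 and in 35.7% of all windows, so it did not set the rising members apart from Ptprz1. TAATTA, the core of LIM-homeodomain sites, was in no member's window and in 5.29% of all. Of the other motifs searched on both strands, TTGGCA (an arm of the NFI site) was in Tnc and Ncan, GTGGGAA (RBPJ) in Tnc, Ncan and Vcan, and ACAAAG (Sox) in Tnr, against 14.1%, 6.38% and 18.7% of all windows. The full palindromic NFI site, CACGTG (an E-box), CAGATGG (a proneural E-box) and TGACTCA (AP-1) were in no member's window and in 0.0365%, 7.15%, 5.30% and 5.20% of all. No pair of the marked matches overlaps in the printed windows, and a match is a description of letters, not a binding site. GC content was 54.0% in the Tnc window, 64.0% in Bcan, 71.7% in Ptprz1 and 56.7% in Ncan, where the median of all windows was 52.7%.

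Tnc and Bcan rose most among the 8 members, Cspg5, Tnr and Vcan rose less, Ptprz1 fell, and Ncan and Hapln4 did not pass the threshold. In edgeR's quasi-likelihood test over 13288 genes, 6 of the 8 had an adjusted p under 0.05 (called here), 5 higher and 1 lower in Lhx2 cKO. Over all genes tested 20.8% were called, 11.6% higher and 9.17% lower, and nothing is read from the members' share because the contrast was known when they were chosen. The median log2 fold change was 0.52 over the 8 members and 0.003 over all genes. The groups did not overlap for 8 of 8 members, against 59.3% of all genes. Bulk libraries cannot tell a change in the number of cells that make a transcript from a change in transcript per cell.

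Tnc encodes tenascin-C, a multi-armed glycoprotein of germinal zones. It was at 106 and 127 CPM in control and at 342 and 346 CPM in Lhx2 cKO. Both Lhx2 cKO libraries were far above both controls and close to each other, while control 2 was above control 1. The level went from 116 ± 15.5 to 344 ± 2.89 CPM (SD, n = 2), a 2.96-fold level and a log2 fold change of 1.56 (SE 0.10, 95% interval 1.36 to 1.77). The nearest libraries of the groups were 1.43 apart on the log2 scale, whereas the 2 controls differed by 0.27 and the 2 Lhx2 cKO libraries by 0.017. The fold change of Tnc was higher than that of 99.2% of genes. In GENCODE M21 an exon of Tnc overlaps 8030451A03Rik on the other strand, and the use of strand in counting is not given in the sources used here, so the 2 cannot be told apart.

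Tnr encodes tenascin-R, the tenascin of the maturing nervous system and of perineuronal nets. Its levels were 24.6 and 21.1 CPM in control and 31.1 and 34.5 CPM in Lhx2 cKO. The groups did not overlap, but the nearest libraries were only 0.34 apart on the log2 scale. From 22.8 ± 2.47 to 32.8 ± 2.38 CPM (SD, n = 2) the level was 1.44-fold, a log2 fold change of 0.52 (SE 0.12, 95% interval 0.28 to 0.77). An exon of Tnr overlaps Gm38039 on the other strand in M21. Both tenascins were therefore called higher, and the interval of Tnc lay wholly above that of Tnr. Per gene length Tnc was at 7.11 and 10.01 times the FPKM (counts scaled to depth and to the deposited gene length) of Tnr in control and at 18.2 and 16.6 times in Lhx2 cKO.

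**Figure D1:**
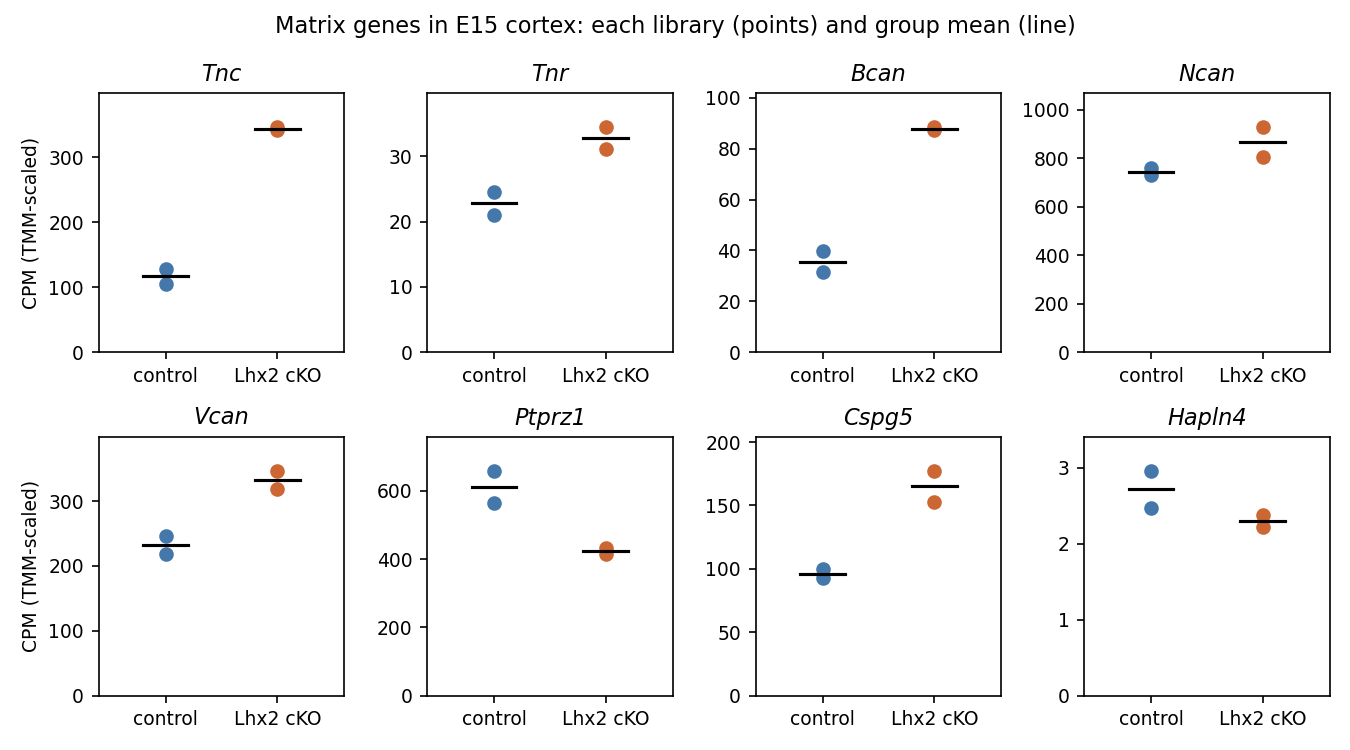
CPM of the 8 matrix genes (y axis, TMM-scaled, starting at 0) in each of the 2 control and 2 Lhx2 cKO libraries, with points for libraries and a line for the group mean. The Lhx2 cKO points of Tnc lie at 342 and 346 CPM against 106 and 127 CPM in control, Ptprz1 lies lower in Lhx2 cKO, and the groups of Ncan and Hapln4 lie close together.

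Among lecticans, Bcan rose most. Bcan encodes brevican, a short lectican of glia. It was at 31.5 and 39.7 CPM in control and at 87.2 and 88.5 CPM in Lhx2 cKO. As for Tnc, the Lhx2 cKO libraries were close to each other and the controls were farther apart, with control 2 the higher. The means were 35.6 ± 5.79 and 87.8 ± 0.888 CPM (SD, n = 2), a 2.47-fold level and a log2 fold change of 1.30 (SE 0.11, 95% interval 1.09 to 1.52). The fold change was higher than that of 98.6% of genes.

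Vcan encodes versican, the large lectican found early in development and in many tissues. It was at 219 and 247 CPM in control and at 318 and 347 CPM in Lhx2 cKO. The level went from 233 ± 19.4 to 333 ± 20.3 CPM (SD, n = 2), or 1.43-fold, a log2 fold change of 0.51 (SE 0.099, 95% interval 0.31 to 0.71). The gap between the nearest libraries, 0.37 on the log2 scale, was wider than the differences within control (0.17) and within Lhx2 cKO (0.13). Versican is made in several splice forms that differ in their chondroitin sulfate regions, and counts per gene do not separate them.

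Ncan encodes neurocan, the lectican most typical of the young brain, made by neurons and glia. Its levels were 759 and 731 CPM in control and 805 and 928 CPM in Lhx2 cKO. Both Lhx2 cKO libraries were above both controls, but the nearest pair was 0.084 apart on the log2 scale and the 2 Lhx2 cKO libraries differed by 0.21. Ncan was not called: the means were 745 ± 20.4 and 866 ± 87.3 CPM (SD, n = 2), and the log2 fold change was 0.22 (SE 0.11, 95% interval -0.003 to 0.44). On the linear scale this interval ran from 0.998-fold to 1.36-fold, overlapping that of Vcan (1.24-fold to 1.64-fold) and lying below that of Bcan (2.12-fold to 2.87-fold).

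The mix of lectican transcripts shifted with the rise of Bcan. Of the summed FPKM of Ncan, Vcan and Bcan, Ncan held 82.2% and 79.1% in control, against 72.0% and 73.8% in Lhx2 cKO. Bcan held 6.04% and 7.61% in control, against 13.8% and 12.5% in Lhx2 cKO, and Vcan held between 11.8% and 14.2% in all 4 libraries. Ncan stayed the most abundant lectican per length in each library, at 13.6 and 10.4 times Bcan in control and 5.21 and 5.93 times Bcan in Lhx2 cKO. The summed lectican level was 128 FPKM in both controls and 155 and 175 FPKM in Lhx2 cKO. These shares come from the same contrast that was known when the genes were chosen and are given without a test. They also depend on the deposited gene lengths.

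**Figure D2:**
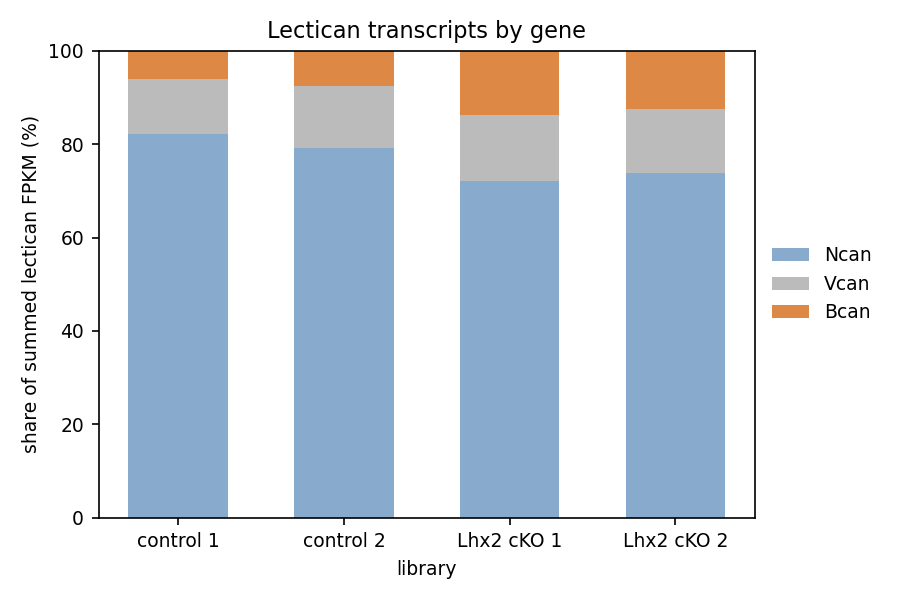
Share of summed lectican FPKM (y axis, %) held by Ncan, Vcan and Bcan in each library, as stacked bars from 0 to 100%. The share of Bcan is 6.04% and 7.61% in control, against 13.8% and 12.5% in Lhx2 cKO, and Ncan holds the largest share in each of the 4 libraries.

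Link proteins lock lecticans to hyaluronan, and Hapln4, also called brain link protein, was the member analysed. In the RefSeq gene order (assembly GRCm38.p6) each of these lecticans lies beside a link protein gene: Ncan beside Hapln4, Bcan beside Hapln2 and Vcan beside Hapln1, and of the 3 link protein genes Hapln4 alone was analysed here. Hapln4 had 60 and 74 counts in control and 54 and 51 counts in Lhx2 cKO, or 2.47 and 2.96 CPM against 2.37 and 2.22 CPM. The lower control and the higher Lhx2 cKO library nearly touched, 0.060 apart on the log2 scale. Means were 2.72 ± 0.344 and 2.30 ± 0.108 CPM (SD, n = 2) and the log2 fold change was -0.24 (SE 0.33, 95% interval -0.92 to 0.43), not called. At this depth neither a fall to 0.530-fold nor a rise to 1.35-fold could be told from no change. Its neighbour Ncan, at 731 to 928 CPM, had an SE of 0.11.

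Membrane proteoglycans went in opposite directions. Ptprz1 was at 566 and 659 CPM in control and at 417 and 434 CPM in Lhx2 cKO. Both Lhx2 cKO libraries were below both controls, with a gap of 0.38 on the log2 scale between the nearest, against a difference of 0.22 between the controls. It went from 612 ± 66.3 to 426 ± 12.3 CPM (SD, n = 2), so that 69.5% of the control level remained, a log2 fold change of -0.53 (SE 0.11, 95% interval -0.74 to -0.31). Of the members it alone was called lower, and its fold change was above that of only 5.40% of genes. The receptor and phosphacan forms share exons and are counted together.

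Cspg5 encodes neuroglycan C, a membrane-spanning chondroitin sulfate proteoglycan of neural cells with an EGF-like module. It was at 92.5 and 99.5 CPM in control and at 153 and 177 CPM in Lhx2 cKO. The groups were well apart, by 0.62 on the log2 scale between the nearest libraries. The means were 96.0 ± 4.95 and 165 ± 17.5 CPM (SD, n = 2), a 1.72-fold level and a log2 fold change of 0.78 (SE 0.098, 95% interval 0.58 to 0.98).

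Per gene length the order of the members in control was Ncan, Ptprz1, Vcan, Tnc, Cspg5, Bcan, Tnr and Hapln4, and it was the same in both control libraries. Mean FPKM in control ran from 103 ± 2.83 for Ncan and 43.0 ± 4.65 for Ptprz1 to 1.77 ± 0.192 for Tnr and 0.693 ± 0.0876 for Hapln4 (SD, n = 2). Vcan (15.2 and 17.1 FPKM) and Tnc (13.6 and 16.4) overlapped between libraries, and so did Cspg5 (9.19 and 9.88) and Bcan (7.75 and 9.77). Within each control library Vcan was above Tnc and Cspg5 above Bcan, and these differences were not tested. In Lhx2 cKO the order was Ncan, Tnc, Ptprz1, Vcan, Bcan, Cspg5, Tnr and Hapln4 in both libraries. Tnc (44.3 ± 0.372 FPKM) stood above Ptprz1 (29.9 ± 0.865 FPKM) there, at 150% and 146% of its level, whereas in control it was at 34.2% and 35.4% of it. Vcan (23.0 ± 1.40) and Bcan (21.6 ± 0.219) were next, with the lower Vcan library at 22.0 and the higher Bcan library at 21.8 FPKM. The crossing of Tnc and Ptprz1 depends on the deposited lengths, 7772 bases for Tnc and 14245 bases for Ptprz1. In CPM Ptprz1 stayed above Tnc in Lhx2 cKO, at 417 and 434 against 342 and 346 CPM. Summed over the 8 members, 1801 and 1927 CPM in control became 2155 and 2358 CPM in Lhx2 cKO.

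**Figure D3:**
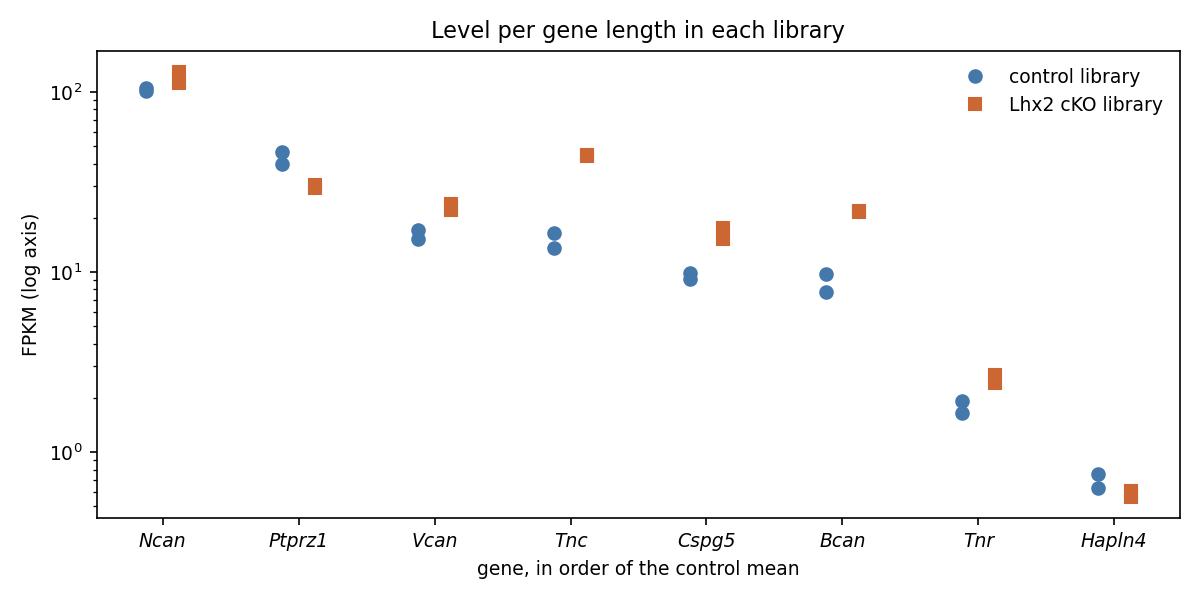
FPKM of each matrix gene (y axis, log scale) in the 2 control libraries (circles) and the 2 Lhx2 cKO libraries (squares), with genes ordered by the control mean. Tnc lies below Ptprz1 in control, at 13.6 and 16.4 FPKM, and above it in Lhx2 cKO, at 44.0 and 44.6 FPKM. In CPM, which leaves out gene length, Ptprz1 is the higher of the pair in both groups.

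Most members ordered the replicates alike. Control 2 was above control 1 for 6 of the 8, the exceptions being Tnr and Ncan, and Lhx2 cKO 2 was above Lhx2 cKO 1 for 7 of the 8, the exception being Hapln4. Leaving out any single library kept the direction and the call of every member. The log2 fold change of Tnc then ranged from 1.42 to 1.71, that of Bcan from 1.13 to 1.48, that of Ptprz1 from -0.64 to -0.41 and that of Ncan from 0.11 to 0.32. For the 8 members, log2 fold changes in the authors' deposited table differed from those here by at most 0.0097. That table gives an adjusted p under 0.05 for 6 members and marks 3 as up (Tnc, Bcan and Cspg5) and 0 as down, and the smallest absolute log2 fold change among all genes it marks is 0.585.

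Related genes of the same matrix, numbered 101 in 7 lists, of which 89 were tested. The lists were written from general knowledge of the matrix but with earlier results of these data known. Of these 89, 29 were called higher, 11 lower and 49 not, or 44.9% where 20.8% of all genes were called, and for that reason nothing is read from the share. Their median log2 fold change was 0.22. The count of called genes was 26 without control 1 and 25 without Lhx2 cKO 2. Among the other lecticans, link proteins and tenascins, Acan, Hapln2 and Tnn were not analysed here, and Hapln3 (log2 fold change 0.35, SE 0.30) and Tnxb (0.26, SE 0.45) were not called.

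Partners of Ptprz1, tenascins and lecticans went both ways. Of 19 tested ligands, receptors and binding partners 8 were called higher and 3 lower (median log2 fold change 0.13). Over all genes 11.6% were called higher and 9.17% lower, and nothing is read from these counts. Of the receptor phosphatases in this list, Ptprs (-0.64) and Ptprf (-0.42) were called lower and Ptprd (0.41) higher. Ptn, the pleiotrophin ligand of Ptprz1, was at 556 and 639 CPM in control and at 770 and 902 CPM in Lhx2 cKO. It was called higher, by 0.48 on the log2 scale (SE 0.11). Without control 1 its log2 fold change was 0.37 and no longer called. Mdk, the midkine ligand, was at 348 and 400 CPM against 309 and 356 CPM, overlapping between groups, with -0.17 (SE 0.10, 95% interval -0.38 to 0.04). Cntn1, a contactin that binds Ptprz1, was called higher by 1.02 (SE 0.12), and Ncam1, an adhesion molecule that binds neurocan and Ptprz1, by 0.67 (SE 0.11). Thus Ptprz1 was lower while Ptn, Cntn1 and Ncam1 were higher and Mdk was not called in the same libraries. Cntn1 and Ncam1 are named because they were among the called genes of smallest p in the list. No pattern between Ptprz1 and its partners is therefore read from them. Rtn4r, the Nogo receptor, was at 0.64, and Fn1, fibronectin, was lower at -0.62. Ncam1 and Fn1 each overlap a gene on the other strand in M21.

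Genes that make, sulfate or clear the sugar chains went both ways. Of 14 genes of chondroitin sulfate chain synthesis, 3 were called higher and 2 lower (median log2 fold change 0.20). B4galt7 (0.42) and Chpf (0.42) were higher and Chpf2 (-0.47) and Xylt1 (-0.37), which starts the chain, were lower. The call of Chpf was lost without Lhx2 cKO 2 (0.30), and that of Xylt1 without either control (-0.42 without control 1 and -0.32 without control 2), without Lhx2 cKO 1 (-0.27) and in DESeq2 (adjusted p 0.0984). Of 8 genes that add or remove sulfate on these chains, 3 were called, each higher (median 0.21). They were Arsb, a lysosomal sulfatase that removes sulfate, at 0.95, and the sulfotransferases Chst12 at 0.53 and Chst7 at 0.78, which add it. Chst12 lost its call without Lhx2 cKO 2 (0.33), and Chst7 without control 1 (0.56), without Lhx2 cKO 2 (0.47) and in DESeq2 (adjusted p 0.0880). Of 13 hyaluronan genes, 5 were higher and 1 lower (median 0.24), with Stab1, a scavenger receptor of macrophages and sinusoidal endothelium, at 0.75, Cemip2 at 0.38 and Layn at 1.21, and with the hyaluronan-degrading Cemip at -1.65. Cemip2 (0.24) and Layn (0.97) were not called without Lhx2 cKO 2. Arsb, B4galt7, Cemip2, Chpf2 and Stab1 overlap other genes in M21.

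Of 16 matrix proteases and inhibitors, 7 were called higher and 2 lower (median log2 fold change 0.35). Adamts1, a protease that cuts lecticans, was lower at -1.20 and Mmp14 lower at -0.49, the latter not called without control 1 (-0.30). Mmp9 (0.75) and the inhibitor Timp2 (0.72) were higher. Of 17 genes listed as other proteoglycans, 3 were higher and 3 lower (median 0.12). Spock2 (0.44) was higher but lost its call without Lhx2 cKO 2 (0.20). Smoc1 (0.83) was also higher and is counted in this list, although it is a matrix glycoprotein and not a proteoglycan. The glypicans Gpc4 (-0.72) and Gpc3 (-1.33) were lower.

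**Figure D4:**
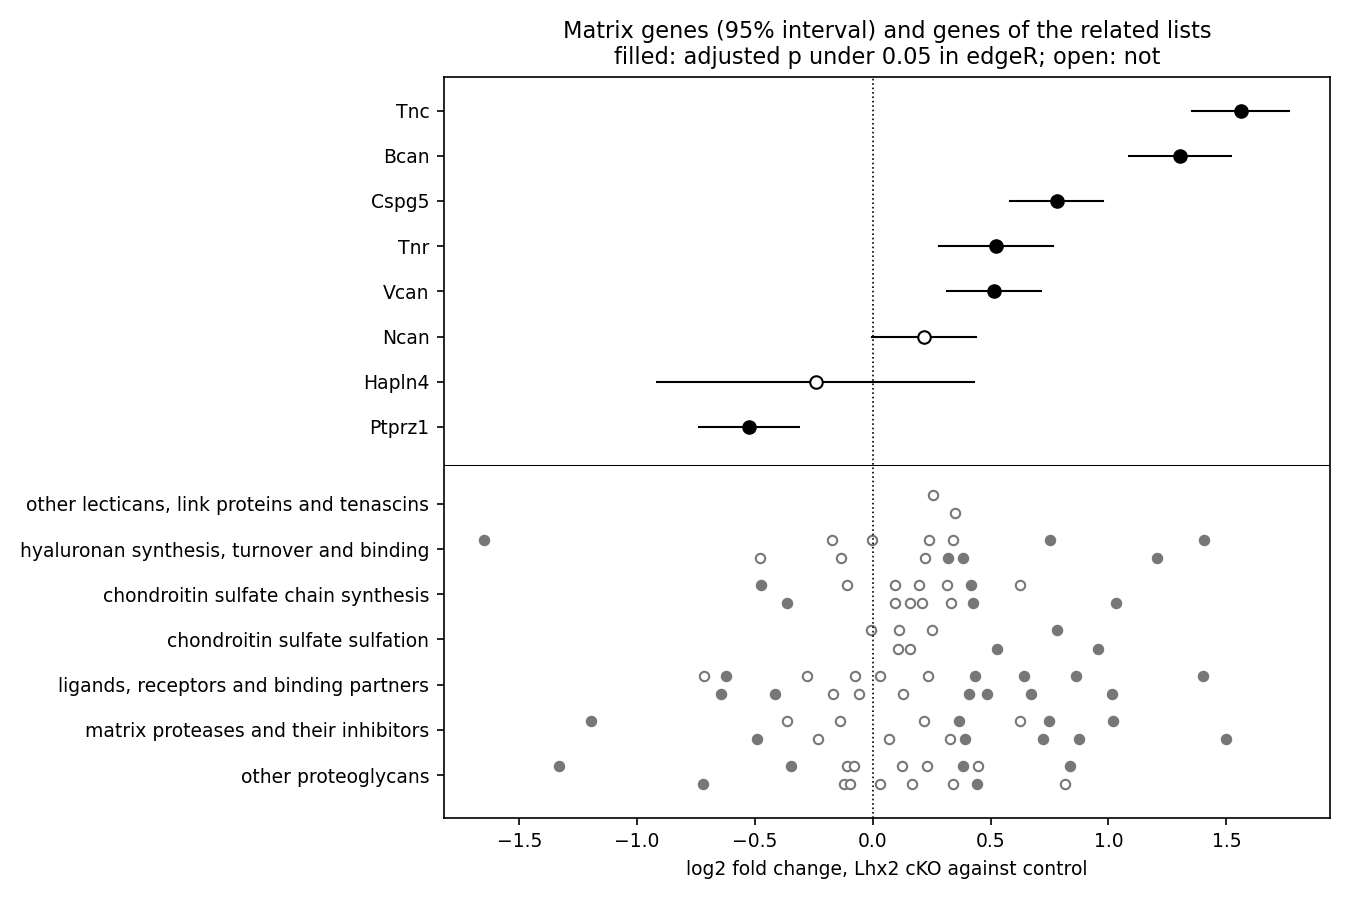
Log2 fold change (x axis, Lhx2 cKO over control) for the 8 matrix genes with 95% intervals and, below the line, for each tested gene of the 7 related lists. Filled points have an adjusted p under 0.05 in edgeR, and Tnc at 1.56 and Bcan at 1.30 lie farthest to the right among the members while Ptprz1 lies at -0.53.

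Markers of cells known to make this matrix moved in the same libraries, and their part in the members' values was not tested. The summed level of 6 astrocyte markers (of 7 listed) was 127 and 167 CPM in control and 293 and 324 CPM in Lhx2 cKO, with 5 called higher. Most of this sum was Sparcl1, at 95.3 and 132 CPM in control and 218 and 250 CPM in Lhx2 cKO. For oligodendrocyte precursors, 6 of 7 markers summed to 48.1 and 55.0 CPM in control and to 81.4 and 91.0 CPM in Lhx2 cKO, with 5 called higher. The largest part of this sum was Cspg4, also counted in a related list, at 26.5 and 31.2 CPM in control and 37.5 and 37.6 CPM in Lhx2 cKO. Radial glia markers, 10 of 10, summed to 747 and 804 CPM in control and 753 and 730 CPM in Lhx2 cKO, with 1 higher and 3 lower. The sum hides these: Pax6 was at 42.4%, Emx2 at 68.2% and Nes at 75.8% of control, and Slc1a3 at 121%. Cell cycle markers summed to 329 and 371 against 212 and 212 CPM (5 of 6 lower), and intermediate progenitor markers to 628 and 630 against 359 and 376 CPM (4 of 5 lower). Pan neuron markers were at 4072 and 4043 against 4325 and 4602 CPM, with 2 higher and 1 lower.

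Other cell types were also measured. Microglia markers summed to 117 and 118 CPM in control and 239 and 264 CPM in Lhx2 cKO (8 of 9 higher), and Cajal-Retzius markers to 295 and 326 against 447 and 570 CPM (4 of 6 higher). Most of the Cajal-Retzius sum was Reln, at 261.5 and 287.4 CPM in control and 383.8 and 498.5 CPM in Lhx2 cKO. Endothelial and pericyte markers were at 228 and 261 against 286 and 323 CPM (4 of 8 higher, 1 lower), and interneuron lineage markers at 246 and 211 against 294 and 286 CPM (2 of 8 higher). The called interneuron markers were Gad2 and Sst, the latter at 43 and 42 against 83 and 95 CPM. Gad1, Dlx1 and Lhx6 overlapped between the groups. Meningeal fibroblast markers, 5 of 8 analysed, were at 53.5 and 52.3 against 35.8 and 34.5 CPM. The 1 called lower was Col1a1, and without it the sum was 27.8 and 29.2 CPM in control, against 31.3 and 32.9 CPM in Lhx2 cKO. Choroid plexus and hem markers, 3 of 8 analysed, were at 54.1 and 49.6 against 37.4 and 39.1 CPM (1 higher, 1 lower). Most of this sum was Rspo3, which was lower, at 49.6 and 46.8 CPM in control against 27.6 and 25.5 CPM in Lhx2 cKO. Rspo2 was higher, at 3.22 and 1.48 against 8.26 and 12.1 CPM, and Aqp1 was not called. Of the markers analysed in these 12 lists, 0 were below 3 counts in any library.

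**Figure D5:**
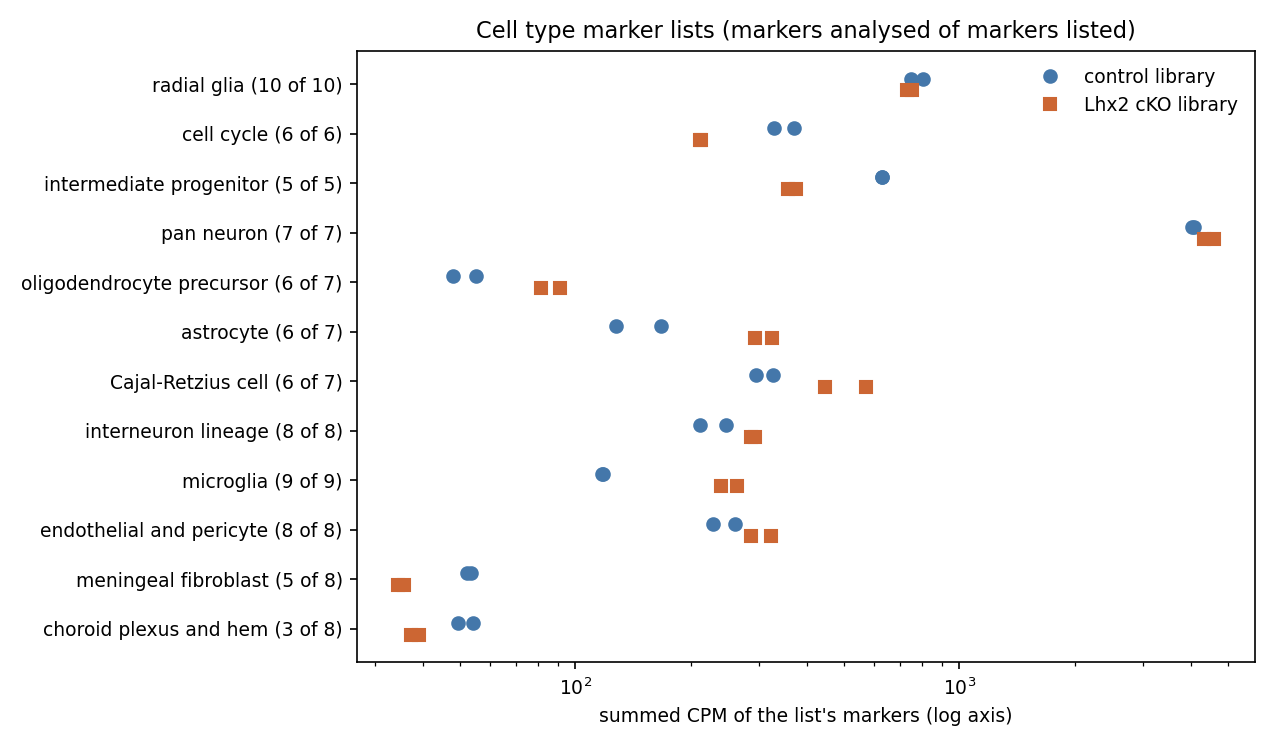
Summed CPM of each cell type marker list (x axis, log scale) in the 2 control libraries (circles) and the 2 Lhx2 cKO libraries (squares). Astrocyte markers lie at 127 and 167 CPM in control and 293 and 324 CPM in Lhx2 cKO. The radial glia sums overlap between the groups, although 1 marker was called higher and 3 lower.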

How the data were processed

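RNA-seq libraries of E15 mouse cortex, 2 control and 2 Lhx2 cKO, were grouped by their titles. The deposited table holds raw read counts per gene and a gene length in bases. Per the submitters' processing notes, Trim Galore, Subread, featureCounts and edgeR were used with build mm39; versions and the annotation are not given in the sources used here. The authors' log2 fold changes, mean log2 CPM, p-values with adjusted p-values, and -log10 of the adjusted p-values were deposited in the same table.

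Counts were tested in edgeR 4.0.16 (R 4.3.3) with TMM, filterByExpr (minimum count 10) and the quasi-likelihood test over 13288 genes, without covariates and two-sided, with Benjamini-Hochberg adjustment and a threshold of 0.05. CPM and FPKM use TMM-scaled totals, and FPKM the deposited length. SEs are the absolute log2 fold change over the square root of F, and 95% intervals use the t quantile at the fit's total degrees of freedom. Of these, 2 are residual and 38.7 are prior, so each gene's error rests largely on the spread shared across genes of these libraries. At this depth 3 counts are 0.122 to 0.135 CPM, a floor for counting error only. Motifs and overlaps came from RefSeq (GRCm38.p6) and GENCODE M21, used for names and sequence. Members and lists were chosen with earlier results of these data known. All members were named, with up to 4 called genes of smallest p per related list, plus Acan, Hapln2, Hapln3, Tnn, Tnxb, Ptn, Mdk, Ptprs, Ptprf and Ptprd. Alternatives were RLE, upper-quartile and total scaling, no filter, a mean count of at least 50, a replicate block, DESeq2 1.42.0, limma-voom (limma 3.58.1), a threshold of 0.01 and each library left out.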

Additional observations from a re-analysis of the deposited data

How the results depend on the processing

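Under the 8 alternatives that kept all libraries, and without each library in turn, the 8 members kept direction and call, and 6 were called in each case, as at a threshold of 0.01. Over the settings with all libraries Tnc ranged from 1.55 to 1.57 and Ncan from 0.21 to 0.23 on the log2 scale. Genes called over the whole table, 2758, were 1697 at the threshold of 0.01, fewer by construction, and 2170 in DESeq2. They ranged from 1633 (without Lhx2 cKO 2) to 2396 (without Lhx2 cKO 1), with 1790 without control 1. Related genes called, 40, ranged from 25 (without Lhx2 cKO 2) to 36 (without Lhx2 cKO 1), with 26 without control 1, and were 35 in DESeq2. With a library left out the lone library of its group is assumed to vary like the others. No result reversed its direction under the alternatives run. The labels do not say whether replicates of the same number belong together. Replicate deviations of the groups had a correlation of -0.01 across genes, which with 2 libraries per group cannot settle this. With the replicate block 2874 genes, 6 members and 40 related genes were called. Scalings moved the median of all genes from 0.003 to between -0.007 and 0.006. The lowest member, Hapln4, with 51 to 74 counts per library, is the one whose precision depth limits most. Leaving out a library could hardly reverse members whose groups do not overlap, so the kept directions say little about stability.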
